A study of Rattus norvegicus with 26 samples.

Results

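The p53 target and senescence transcripts described here are the 9 genes Cdkn1a, Cdkn2a, Mdm2, Ccng1, Bax, Sesn2, Phlda3, Eda2r and Gdf15. They were taken by symbol from a count table of 34034 genes, and all 9 were present. The table covers soleus, a slow postural calf muscle, of 26 aged female rats from lines bred selectively for low or high running capacity (LCR and HCR, generation 44). The 4 groups were 8 LCR and 8 HCR rats kept sedentary without a wheel, and 5 LCR and 5 HCR rats housed in pairs with a running wheel for more than 5 months. The labels give no exact age, cage, litter or batch, and the runners were a separate cohort, so running cannot be told apart from cohort or cage. Whole muscle was sampled, so a lower level can mean fewer cells of a type or less RNA per cell, which cannot be told apart.

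The p53 protein is a transcription factor that is stabilised by DNA damage and other stress and binds a pair of decamers close to the genes it activates. Cdkn1a encodes p21, an inhibitor of cyclin-dependent kinases that stops the cell cycle, and Cdkn2a encodes p16INK4a and ARF, which hold cells in senescence. Mdm2 encodes the ligase that marks p53 for degradation and so closes a feedback loop, and Ccng1 encodes cyclin G1. Bax drives mitochondrial apoptosis, Sesn2 and Phlda3 restrain the mTORC1 and Akt pathways respectively, Eda2r encodes a receptor for the ligand ectodysplasin A2, and Gdf15 encodes a circulating stress cytokine. In muscle, Cdkn1a also rises when fibres differentiate or lose their nerve. Loss of nerve contact brings back the fetal acetylcholine receptor subunit encoded by Chrng, with Chrna1, Myog, Runx1 and Ncam1, and Chrng therefore served here as the measure of denervation-type expression in each rat.

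Libraries were primed at the poly(A) tail and held 1.10 to 2.52 megacounts each. Levels are given as counts scaled to 1 megacount per library (CPM). Of the 9 members, 7 passed the filter on low counts with 10064 genes in all, and Cdkn2a and Gdf15 did not. The slow-fibre markers of soleus summed to between 39200 and 59300 CPM in every library, and none of the 12 was at 0 throughout a group. The titles of the libraries HCR running 5 and LCR running 5 name the other line, and both were kept under their genotype.

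The sequence before the transcription start is shown for 4 members, picked after the results below were seen. They are the 3 that turned out to move together and Ccng1, which carries a p53 site as complete as that of Cdkn1a. Binding of p53 was not measured, and a relation between sites and levels was not tested. Each window holds the 250 bases before the start, read on the gene's strand from RefSeq's promoter table for GRCr8, which is not the assembly that the counts were made on. Capitals mark a match to the full p53 site, a pair of abutting decamers, with at most 1 mismatch. The windows lie at chr20:7150682-7150931 (plus strand) for Cdkn1a, chr10:25684877-25685126 (minus strand) for Ccng1, chrX:66280621-66280870 (minus strand) for Eda2r and chr13:49744753-49745002 (plus strand) for Phlda3.
Cdkn1a: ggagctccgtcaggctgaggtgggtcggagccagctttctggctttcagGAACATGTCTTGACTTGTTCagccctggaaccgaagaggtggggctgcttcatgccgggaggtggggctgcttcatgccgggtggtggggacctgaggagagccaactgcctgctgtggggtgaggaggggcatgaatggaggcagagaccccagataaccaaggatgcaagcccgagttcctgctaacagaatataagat
Ccng1: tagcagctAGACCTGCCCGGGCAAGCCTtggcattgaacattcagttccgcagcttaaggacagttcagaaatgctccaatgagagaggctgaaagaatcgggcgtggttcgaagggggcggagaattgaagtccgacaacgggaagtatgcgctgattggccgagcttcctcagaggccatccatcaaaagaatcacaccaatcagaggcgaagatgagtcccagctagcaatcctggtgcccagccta
Eda2r: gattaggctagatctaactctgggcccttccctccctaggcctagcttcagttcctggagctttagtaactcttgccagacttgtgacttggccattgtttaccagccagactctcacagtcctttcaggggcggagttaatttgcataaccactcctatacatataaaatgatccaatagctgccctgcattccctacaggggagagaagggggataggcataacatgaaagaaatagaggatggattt
Phlda3: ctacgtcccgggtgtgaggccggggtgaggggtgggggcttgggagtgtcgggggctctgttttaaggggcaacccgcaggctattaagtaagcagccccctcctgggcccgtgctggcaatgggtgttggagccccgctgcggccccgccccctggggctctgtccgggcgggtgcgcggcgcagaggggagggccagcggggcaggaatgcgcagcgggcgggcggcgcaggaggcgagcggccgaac

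The Cdkn1a window held GAACATGTCTTGACTTGTTC, which starts 201 bases before the transcription start, and the Ccng1 window held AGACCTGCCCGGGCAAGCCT, which starts 242 bases before it. Among 33469 windows of the same length, 0.0598% held a full site with at most 1 mismatch and 6.64% held a single perfect decamer, searched on both strands. The windows of Mdm2, Sesn2, Phlda3, Eda2r, Cdkn2a and Gdf15 held no perfect decamer, and 8 of the 9 members had a window. The letters CAGCTG, an E-box of the kind bound by myogenic factors and a palindrome read the same on both strands, occurred in 12% of all windows and in 1 of the Gdf15 windows. It did not occur in the windows with a marked p53 site. A match describes letters only, and a window without one says nothing about sites elsewhere in the gene.

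Cdkn1a differed far more between rats of the same group than between groups. Its level ran from 14.9 to 308.6 CPM over the 26 rats, a 20.7-fold range. In sedentary LCR rats it ran from 35.8 to 296 CPM with a median of 147 CPM, and in sedentary HCR rats from 58.7 to 309 CPM with a median of 169.7 CPM. Running LCR rats had 143, 59.1, 288, 95.9 and 14.9 CPM, and running HCR rats had 156, 71.8, 131, 158 and 116 CPM. All groups overlapped, and the group means lay between 120 ± 105 CPM (SD, n = 5, running LCR) and 158 ± 84.8 CPM (n = 8, sedentary HCR). The difference between sedentary lines was 0.11 on the log2 scale (SE 0.44, adjusted p = 0.94, edgeR quasi-likelihood test), with an interval of 2 SE from -0.76 to 0.98. That interval covered differences in both directions, so these rats did not settle the direction or size of a sedentary line difference in Cdkn1a.

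Mdm2, the p53 feedback gene, was far steadier, with a 1.49-fold range over all 26 rats and a coefficient of variation of 11.9% against 57.3% for Cdkn1a. Sedentary LCR rats had 75.3 to 104 CPM (median 88.1) and sedentary HCR rats 75.0 to 102 CPM (median 85.1). Running LCR rats had 88.5, 71.4, 75.5, 72.4 and 69.8 CPM, of which 3 lay below every sedentary LCR rat. This running difference of -0.21 (SE 0.09) did not pass the threshold (adjusted p = 0.715, edgeR), and running HCR rats, at 94.0, 77.3, 77.8, 75.6 and 80.0 CPM, overlapped sedentary HCR rats entirely.

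Ccng1 came closest to a line difference. Sedentary HCR rats had 710 to 998 CPM (median 792) and sedentary LCR rats 529.9 to 734.5 CPM (median 652), so 8 of 8 HCR rats lay above the LCR mean and 5 lay above every LCR rat. The log2 difference was 0.29 (SE 0.08, adjusted p = 0.0526, edgeR), a 1.22-fold higher level, just outside the threshold of 0.05. Running LCR rats had 702, 603, 601, 663 and 655 CPM and running HCR rats 865, 661, 673, 718 and 631 CPM, a smaller log2 difference of 0.13 (SE 0.11, adjusted p = 0.796, edgeR) with overlapping groups. With DESeq2 the sedentary difference was 0.29 with an adjusted p of 0.0262 and with limma voom 0.28 with 0.0406, so the call depended on the tool. Within edgeR it also passed with upper-quartile factors (adjusted p = 0.0382), with library size only (adjusted p = 0.0161), with the replicate block (adjusted p = 0.0477) and without the 2 deepest libraries (adjusted p = 0.045).

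Phlda3, which encodes a repressor of Akt, had the largest line difference among the members. Sedentary HCR rats had 34.0 to 72.1 CPM (mean 52.4 ± 13.2, SD, n = 8) and sedentary LCR rats 15.4 to 52.9 CPM (33.8 ± 13.9, n = 8). Running HCR rats had 55.5, 20.4, 49.8, 61.4 and 78.2 CPM against 42.0, 28.6, 48.8, 24.1 and 14.1 CPM in running LCR rats. In both housings the groups overlapped, with 8 of 8 sedentary and 4 of 5 running HCR rats above the LCR mean. Averaged over housing, the difference was 0.66 on the log2 scale (SE 0.22), and it did not pass (adjusted p = 0.103, edgeR). By the line in the titles of the conflicting libraries, the running difference turned to -0.12. The averaged difference was then 0.24 (adjusted p = 0.757, edgeR), and without those 2 libraries it was 0.48 (adjusted p = 0.285, edgeR).

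Eda2r ran from 152 to 405 CPM over all rats, with group means of 220 ± 66.0 CPM (SD, n = 8, sedentary LCR), 269 ± 85.2 CPM (n = 8, sedentary HCR), 219 ± 64.2 CPM (n = 5, running LCR) and 216 ± 42.7 CPM (n = 5, running HCR). Running LCR rats had 242, 177, 321, 189.9 and 165 CPM, and running HCR rats had 265, 156, 232, 236 and 192 CPM. The order of the group means was not separated by their spread, and the sedentary line difference of 0.25 (SE 0.18) did not pass (adjusted p = 0.533, edgeR).

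For the apoptosis gene Bax and the stress-induced gene Sesn2 no difference between groups passed in edgeR. The intervals of 2 SE did not exclude sizeable differences. For running in LCR the interval of Sesn2 ran from -0.714 to 0.22 on the log2 scale. For running in HCR that of Bax ran from -0.505 to 0.139. Bax had group means from 24.8 ± 2.69 CPM (SD, n = 5, running LCR) to 30.2 ± 6.73 CPM (n = 8, sedentary HCR). Sesn2 had group means from 12.0 ± 2.73 CPM (n = 5, running LCR) to 14.5 ± 1.81 CPM (n = 8, sedentary LCR). Sesn2 varied more among sedentary HCR rats, from 8.02 to 24.6 CPM, than among sedentary LCR rats, from 12.3 to 16.8 CPM.

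**Figure D1:**
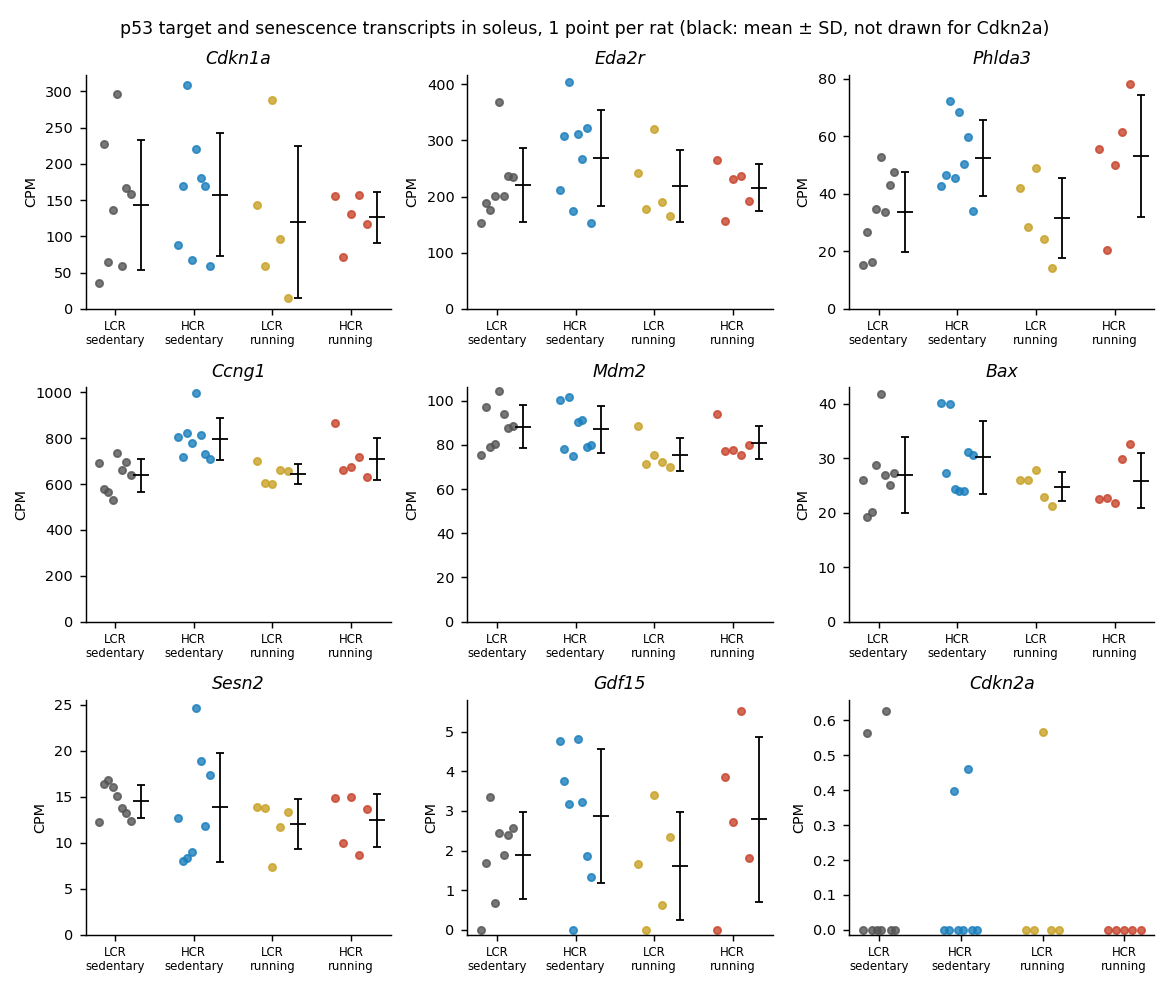
Level of each of the 9 transcripts (y axis, CPM from 0) in every rat by group (x axis), with the mean ± SD in black except for Cdkn2a. Cdkn1a spreads from 14.9 to 308.6 CPM within overlapping groups, and Mdm2 stays between 69.8 and 104 CPM. All 8 sedentary HCR points of Ccng1 and of Phlda3 lie above the sedentary LCR mean, but only 5 and 3 of them lie above every sedentary LCR point.

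Cdkn2a and Gdf15 were close to the counting limit. Cdkn2a had 5 counts in all, 1 in each of 5 rats, and 0 in the 5 running HCR rats together, which allows up to 0.402 CPM there by counting error alone. These counts cannot tell the p16INK4a and ARF transcripts apart. Gdf15 had 104 counts in 22 of 26 rats. Its mean was 1.88 ± 1.09 CPM in sedentary LCR and 2.86 ± 1.69 CPM in sedentary HCR rats (SD, n = 8 each), a difference of 0.986 CPM (2-sided exact permutation p = 0.185). Running LCR rats had 1.66, 0, 3.40, 0.619 and 2.35 CPM and running HCR rats 0, 3.87, 2.73, 5.51 and 1.82 CPM (2-sided exact permutation p = 0.333). Leaving out each sedentary rat in turn gave sedentary differences from 0.708 to 1.39 CPM, and 1 of these 16 omissions brought p under 0.05. It was that of sedentary HCR rat 4, which had no Gdf15 count (1.39 CPM, 2-sided exact permutation p = 0.0451). Sedentary LCR rat 1 also had no Gdf15 count.

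Of the 7 tested members, 0 passed in any of the 7 comparisons of groups. Over all 10064 genes, edgeR called 2.72% between the sedentary lines, 0.626% between the running lines, 3.75% between the lines averaged over housing, 0% for running in LCR, 0.0994% for running in HCR, 0.378% for running averaged over the lines, and 0% for the difference between the lines' running responses. At an unadjusted p under 0.05 the members numbered 2, 1, 2, 1, 0, 1 and 0 in that order. Of all 10064 genes, 1601, 863, 1585, 612, 1262, 1279 and 592 were under that p. The comparisons share groups and are not independent. DESeq2 called 1 member between the sedentary lines and 2 between the averaged lines. The share of all genes that DESeq2 called is not given here, so these counts cannot be set beside the edgeR shares. All 7 members were below 0 for running averaged over the lines, with a median of -0.13 on the log2 scale against 0.00 over all genes. The closest to the threshold, Mdm2, was at -0.13 (SE 0.06, adjusted p = 0.379, edgeR). Phlda3 was at -0.01 (SE 0.22, adjusted p = 0.997, edgeR), and its sign changed in 10 of 26 refits that each left out 1 library. The share of all genes below 0 is not given here, and some members vary together, so the shared sign is not a test.

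**Figure D2:**
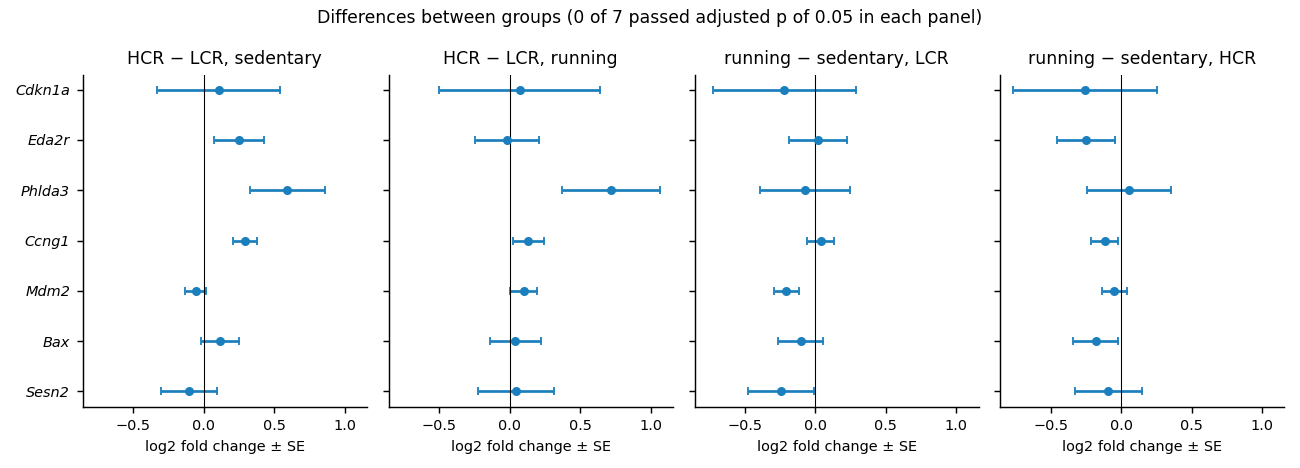
Log2 fold change (x axis, points) with its SE (bars) for the 7 tested members (y axis) in 4 comparisons of groups. The bars of Cdkn1a are the widest, with an SE of 0.44 between the sedentary lines against 0.08 for Ccng1, and Phlda3 is at 0.59 and 0.72 in the line comparisons.

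Among other genes of these pathways, Nupr1, a stress-induced chromatin protein, was higher in sedentary HCR rats by 0.64 on the log2 scale (SE 0.16, adjusted p = 0.0207, edgeR). It was 1 of 17 tested genes of the integrated stress response. Of 24 senescence genes other than the members, 2 were higher in sedentary HCR, beside 1.57% of all genes. They were Spp1 at 1.56 (SE 0.39, adjusted p = 0.0317, edgeR) and Plat at 1.01 (SE 0.28, adjusted p = 0.048, edgeR). Spp1 encodes the matrix cytokine osteopontin and Plat tissue plasminogen activator. Of 26 other p53 targets and 13 regulators of p53, 0 passed between the sedentary lines. At an unadjusted p under 0.05 were 2 in each of these p53 lists, 6 of the 24 senescence genes and 2 of the 17 integrated stress response genes. So were 1601 of all 10064 genes. Macrophage markers summed to 230 to 375 CPM in sedentary LCR and 353 to 546 CPM in sedentary HCR rats, and adipocyte markers to 546 to 879 and 722 to 1050 CPM. Fibroblast markers summed to 916 to 1370 and 855 to 1750 CPM and Schwann cell markers to 143 to 249 and 192 to 355 CPM. At an unadjusted p under 0.05 in edgeR were 5 of 13 macrophage and 3 of 7 adipocyte markers tested. So were 3 of 11 fibroblast and 4 of 5 Schwann cell markers, beside the same 1601 of all 10064 genes. Of these markers only Folr2, a macrophage gene, passed adjustment. The part of these cells in the line differences of Ccng1, Phlda3 and Spp1 was not tested.

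Between rats of the same group, Cdkn1a, Eda2r and Phlda3 rose with Chrng, while no change passed the test for Mdm2, Ccng1, Bax and Sesn2. Chrng itself ran from 2.01 to 86.7 CPM, and its group means were 31.1 ± 27.8 (SD, n = 8, sedentary LCR), 19.2 ± 9.54 (n = 8, sedentary HCR), 16.5 ± 10.3 (n = 5, running LCR) and 14.9 ± 7.64 CPM (n = 5, running HCR). In running LCR rats Chrng was at 22.7, 13.3, 31.2, 8.04 and 7.06 CPM, in the same order of rats as the Cdkn1a values of 143, 59.1, 288, 95.9 and 14.9 CPM. The rat highest in Chrng was also the highest in Cdkn1a there, and the lowest was the lowest. In running HCR rats Chrng was at 14.8, 7.18, 13.0, 27.6 and 11.8 CPM, again with the highest and the lowest rat the same as for Cdkn1a. Among the 8 rats lowest in Chrng of all 26, 6 were among the 8 lowest in Cdkn1a, 6 in Eda2r, 5 in Phlda3 and in Mdm2, and 3 in Ccng1. Among the 8 highest in Chrng, 5 were among the 8 highest in Cdkn1a, 4 in Eda2r, 4 in Phlda3, 3 in Mdm2 and 3 in Ccng1.

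In a fit over all genes with the group means and log2 CPM of Chrng as terms, Cdkn1a rose by 0.68 on the log2 scale for each doubling of Chrng (SE 0.12, adjusted p = 0.00171, edgeR quasi-likelihood test), or 1.6-fold. Eda2r rose by 0.25 (SE 0.05, adjusted p = 0.00154, edgeR) and Phlda3 by 0.36 (SE 0.09, adjusted p = 0.0161, edgeR). Over all 10063 genes in that fit 3.46% passed, with 2.24% rising and 1.22% falling, beside 3 of 7 members rising. The members and the gene lists below were chosen with earlier results of these data known, so setting them beside that share is not a test. The slopes that did not pass were 0.10 for Bax (adjusted p = 0.371), 0.04 for Mdm2 (adjusted p = 0.513), 0.01 for Ccng1 (adjusted p = 0.896) and -0.04 for Sesn2 (adjusted p = 0.855), all from the same edgeR fit. An interval of 2 SE ran from -0.05 to 0.08 for Ccng1 and from -0.02 to 0.10 for Mdm2, whereas it ran from 0.44 to 0.92 for Cdkn1a. The call for Phlda3 was lost without the sedentary LCR rat 5 (adjusted p = 0.0615), which has the highest Chrng, and the calls for Cdkn1a and Eda2r held without each of the 26 libraries in turn.

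Differences in slope between members were computed by permuting Chrng deviations within groups. The 3 rising members had been picked by their slopes in these same rats, so their p-values against the others are no independent support. Cdkn1a exceeded Ccng1 by 0.69 (2-sided permutation p = 4e-05, adjusted p = 0.0002) and Mdm2 by 0.66 (2-sided permutation p = 2e-05, adjusted p = 0.0002). The smallest of the 12 differences between a rising member and Mdm2, Ccng1, Bax or Sesn2 was that of Eda2r over Bax, at 0.17 (2-sided permutation p = 0.00991, adjusted p = 0.0114). Cdkn1a also rose more steeply than Eda2r, by 0.45 (permutation p = 0.0004, adjusted p = 0.000806), and than Phlda3, by 0.33 (permutation p = 0.0116, adjusted p = 0.0124). In all 15 differences were tested and adjusted by Benjamini-Hochberg, and the members were divided this way after their slopes were seen. The adjustment does not cover that choice, and pairs among Mdm2, Ccng1, Bax and Sesn2 were not tested.

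**Figure D3:**
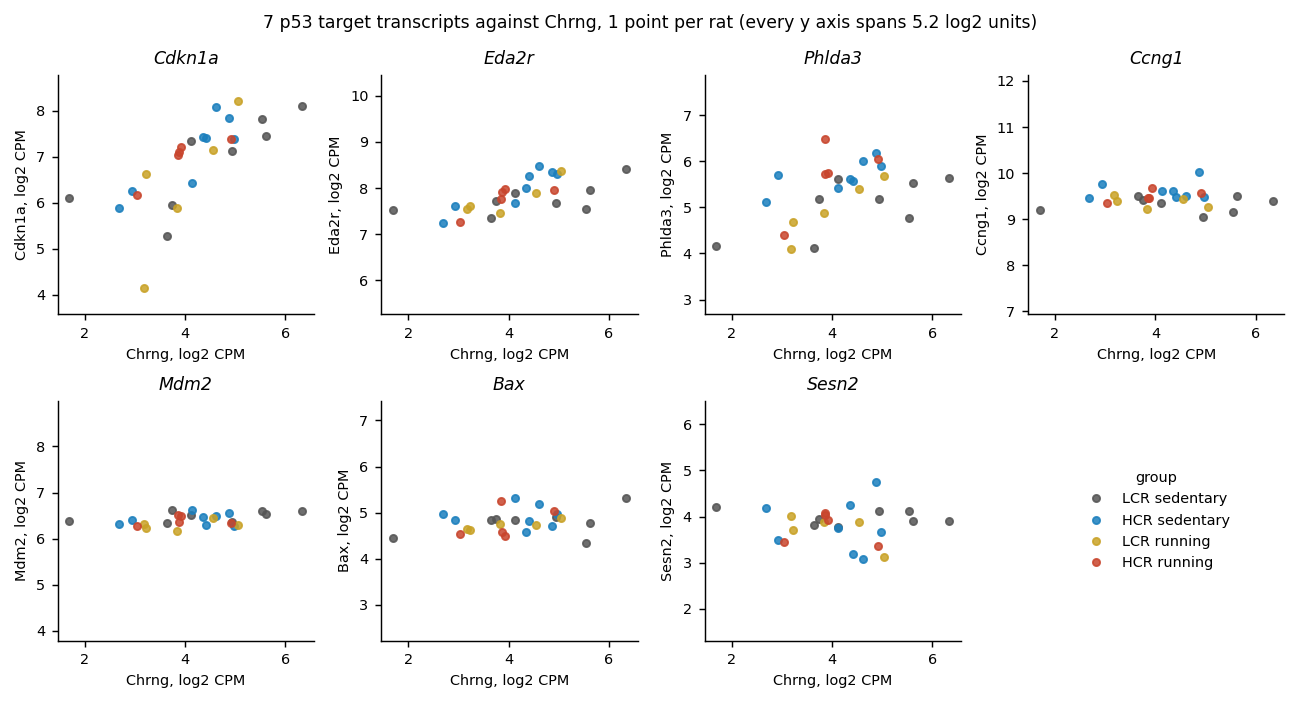
Log2 CPM of the 7 tested members (y axes, each spanning the same width) against log2 CPM of Chrng (x axis), 1 point per rat and coloured by group. Points of Cdkn1a climb with Chrng most steeply, at 0.68 per doubling, those of Eda2r and Phlda3 less so, and those of Ccng1 and Mdm2 form a nearly level band.

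The relation was also seen as a correlation of deviations from the group means over 26 rats. Pearson's r with Chrng was 0.753 for Cdkn1a (permutation p = 2e-05), with Spearman's rho 0.852 (permutation p = 2e-05). For Eda2r r was 0.723 (permutation p = 3e-05) and rho 0.764 (permutation p = 3e-05), and for Phlda3 r was 0.675 (permutation p = 0.00023) and rho 0.649 (permutation p = 0.00129). Adjusted over the 86 relations computed this way, the p-values of r were 0.000287, 0.000313 and 0.00124 in that order. For Mdm2 r was 0.362 (permutation p = 0.0925) with rho 0.337 (permutation p = 0.119), and for Ccng1 r was 0.0768 (permutation p = 0.738) with rho 0.0291 (permutation p = 0.899). Without the 2 rats farthest from the median Chrng, sedentary LCR 3 and 5, r was 0.802 for Cdkn1a, 0.761 for Eda2r and 0.605 for Phlda3. For Gdf15, on its few counts, r was 0.238 over 26 rats (permutation p = 0.229, rho 0.282) and 0.453 without those 2 rats (permutation p = 0.036, rho 0.459).

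Within single groups the same direction was present in both sedentary lines. Among 8 sedentary LCR rats r was 0.782 for Cdkn1a (2-sided exact permutation p = 0.0201), 0.637 for Eda2r (exact p = 0.089) and 0.687 for Phlda3 (exact p = 0.0588). Among 8 sedentary HCR rats r was 0.874 for Cdkn1a (exact p = 0.00233), 0.905 for Eda2r (exact p = 0.00057) and 0.703 for Phlda3 (exact p = 0.0549). Spearman's rho was 0.881, 0.762 and 0.738 in LCR (exact p = 0.00724, 0.0368 and 0.0458) and 0.714, 0.905 and 0.762 in HCR (exact p = 0.0576, 0.00456 and 0.0368). No correlation is given within the running groups, which held 5 rats each.

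Cdkn1a, Eda2r and Phlda3 also followed one another. They had been picked by their slopes on Chrng in these same rats, and genes that each follow Chrng tend to follow one another. The p-values of their pairs are therefore no independent support. With group means taken out, r was 0.794 between Cdkn1a and Eda2r (permutation p = 1e-05, the smallest that the permutations can give, rho 0.813), 0.749 between Cdkn1a and Phlda3 (permutation p = 5e-05, rho 0.681) and 0.75 between Phlda3 and Eda2r (permutation p = 1e-05, rho 0.759). Against Cdkn1a, Mdm2 reached 0.317 (permutation p = 0.137), Bax 0.131, Ccng1 -0.0978 and Sesn2 -0.203. Among 21 pairs of members, the 3 pairs within the rising trio were the only ones with an adjusted p of r under 0.05, and Mdm2 with Phlda3 was next at 0.475 (permutation p = 0.019, adjusted p = 0.0628).

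Setting genes against Cdkn1a in place of Chrng, in the same kind of edgeR fit, gave a wider set. Of all genes 5.7% passed. Eda2r rose by 0.30 per doubling of Cdkn1a (SE 0.04, adjusted p = 2e-05, edgeR) and Phlda3 by 0.44 (SE 0.08, adjusted p = 0.000941, edgeR). Runx1, a transcription factor induced in denervated muscle, rose by 0.68 (SE 0.07, adjusted p = 1.69e-06, edgeR), and its r with Cdkn1a over 26 rats was 0.898. Mdm2 at 0.04, Bax at 0.05, Ccng1 at -0.01 and Sesn2 at -0.06 did not pass. Of 26 other p53 targets 3 rose and 0 fell against Cdkn1a, namely Gadd45a at 0.60, Bbc3 at 0.60 and Tp53inp1 at 0.16. Of 24 senescence genes 2 rose and 0 fell, Cdkn2b at 0.70 and Rb1 at 0.24, and of 13 p53 regulators 1 rose, Tp53bp1 at 0.20. Of 17 integrated stress response genes 1 rose, the lipoprotein receptor gene Vldlr by 0.18 (SE 0.05, adjusted p = 0.0144, edgeR), and 1 fell, Atf4, the central factor of that response, by 0.14 (SE 0.03, adjusted p = 0.00907, edgeR). Cell type markers moved with Cdkn1a too. Of 12 slow-fibre markers 4 fell and 0 rose, with 9 at an unadjusted p under 0.05, as were 1902 of all 10063 genes. Of 12 endothelial markers 2 fell, of 7 adipocyte markers 1 fell, and of 7 satellite cell markers 2 rose. At an unadjusted p under 0.05 in edgeR were 6, 1 and 4 of these markers in that order. Their part in these slopes was not tested.

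Denervation genes rose together with Chrng, with 13 of 20 tested rising and 0 falling and a median slope of 0.37 against 0.00 over all genes. Igfn1, a sarcomere-associated protein, had a slope of 1.49 (SE 0.16, adjusted p = 8.57e-06, edgeR). Chrna1 was at 0.78, Runx1 at 0.54, Myog at 0.49, Ncam1 at 0.37 and Chrnd at 0.19, all past the threshold in edgeR. Cdkn1a, at 0.68, had a slope between those of Chrna1 and Runx1, within 2 SE of each.

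Other p53 targets were split in direction against Chrng. Of 26 tested 2 rose and 0 fell, against the 2.24% of all genes that rose. Slopes of 13 of the 26 lay above 0, with a median of 0.01, and 11 of the 26 were at an unadjusted p under 0.05, as were 1715 of all 10063 genes in edgeR. These were Bbc3, the apoptosis gene that encodes PUMA, at 0.52 (SE 0.12, adjusted p = 0.00871, edgeR) and Gadd45a, a growth arrest gene that is also induced in denervated muscle, at 0.41 (SE 0.11, adjusted p = 0.0332, edgeR). Of 13 p53 regulators 1 rose, Tp53bp1, which encodes the DNA break protein 53BP1, at 0.26 (SE 0.04, adjusted p = 1.78e-05, edgeR). Mdm4, a p53 inhibitor, was at -0.04 (adjusted p = 0.667, edgeR).

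Among 24 other senescence genes 1 rose and 0 fell. It was Cdkn2b, which encodes the kinase inhibitor p15INK4b, at 0.66 (SE 0.14, adjusted p = 0.00525, edgeR), and the median of the list was 0.06. Of 17 integrated stress response genes and 4 proliferation genes 0 passed. At an unadjusted p under 0.05 were 4 and 2 of them, and 1715 of all 10063 genes. Of 8 tested genes around EDA2R signalling 1 rose, Traf3, an adaptor that holds back the non-canonical NF-kB pathway, at 0.24 (SE 0.06, adjusted p = 0.0128, edgeR). Map3k14, the NF-kB-inducing kinase that Traf3 keeps low, was at 0.24 against Chrng (adjusted p = 0.0675, edgeR) and rose by 0.32 against Cdkn1a (SE 0.07, adjusted p = 0.00637, edgeR). Of 13 tested atrophy genes 2 rose and 0 fell, with a median slope of -0.01. They were the metallothioneins Mt1 at 0.89 (SE 0.20, adjusted p = 0.0134, edgeR) and Mt2A at 0.74 (SE 0.16, adjusted p = 0.0096, edgeR).

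**Figure D4:**
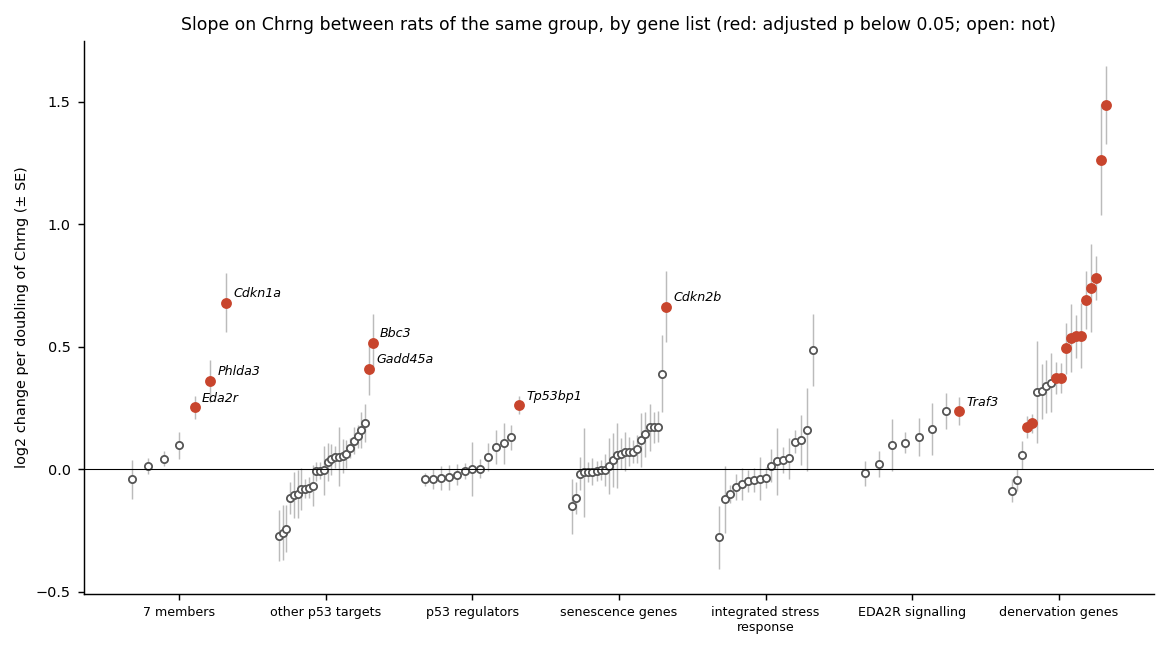
Log2 change per doubling of Chrng (y axis, with SE bars) for every tested gene of 7 lists (x axis), in red where adjusted p was below 0.05. Of the 7 members 3 are red, against 2 of 26 other p53 targets and 13 of 20 denervation genes.

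Other measures also moved with Chrng. The satellite cell genes Pax7 and Myod1 rose by 0.37 and 0.55 per doubling of Chrng (adjusted p = 0.00294 and 0.0196, edgeR), 2 of 7 tested markers of these muscle stem cells, whose markers summed to 158 to 277 CPM over all rats. Of 12 endothelial markers Ptprb and Cldn5 fell by 0.19 and 0.18, of 12 slow-fibre markers Atp2a2 fell by 0.16, and of 7 adipocyte markers Lpl and Lep fell by 0.21 and 0.62. Slopes above 0 numbered 2, 0 and 0 in these lists. At an unadjusted p under 0.05 in edgeR were 6, 3 and 6 of their markers in that order, and 2 of the 7 satellite cell markers. So were 1715 of all 10063 genes. The part of these cells in the slopes was not tested. Sequencing depth had an r of 0.383 with Cdkn1a (permutation p = 0.0585) with a rho of 0.41 (permutation p = 0.0409), 0.329 with Chrng (permutation p = 0.107) and 0.0554 with Phlda3, and the deepest libraries, sedentary LCR 5 and HCR 3, were the highest in Cdkn1a. With the log2 total count as a term the slopes were 0.65, 0.24 and 0.40 for Cdkn1a, Eda2r and Phlda3, and all 3 passed (adjusted p = 0.00723, 0.0118 and 0.0173, edgeR). With log2 CPM of Myh2, the fast type IIA myosin, as a term they were 0.72, 0.27 and 0.45, and again all passed. Without those 2 libraries they were 0.68, 0.23 and 0.37, and Phlda3 no longer passed (adjusted p = 0.0845, edgeR).

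Taking Chrng as a term also changed the line comparison of Phlda3. With rats compared at the same Chrng, Phlda3 was higher in sedentary HCR than in sedentary LCR rats by 0.76 on the log2 scale (SE 0.20, adjusted p = 0.034, edgeR), and by 0.76 averaged over housing (SE 0.17, adjusted p = 0.0062, edgeR). Ccng1 was higher in sedentary HCR rats by 0.30 (SE 0.08, adjusted p = 0.0387, edgeR). Cdkn1a and Eda2r did not pass in this fit. This fit was added after the values were seen. It was run only with the 2 libraries of conflicting titles under their genotype.

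The genes most like each member across the 26 rats were found among 8334 genes by r of log2 CPM with group means taken out, given as a description with no test. Cdkn1a was most like Aif1l (0.953), Ppp1r14c (0.922) and Adap2 (0.906), and Eda2r most like Tgfb2 (0.887), Sncg (0.871) and Prrg4 (0.855). Phlda3 was most like Castor2 (0.809), Col25a1 (0.807) and Ifitm10 (0.803). Ccng1 was most like Fhl1 (0.819), Kpna1 (0.807) and Bud31 (0.766). For Mdm2 the highest r was 0.701, with Atp6v1d, for Bax 0.747, with Cstf2, and for Sesn2 0.771, with Ppat.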

How the data were processed

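The authors' deposited table holds raw, whole-number read counts per gene, with no normalization, for 26 libraries, and 0 of its columns belonged to no sample. Tools listed, without versions, in the submitters' processing notes are STAR, featureCounts, cutadapt, UMI-tools, FastQC and MultiQC, and the builds listed are mRatBN7.2 and rn7. Collapse of molecular identifiers, strand setting and annotation are not given in the sources used here, so counting error is a lower bound and antisense or overlapping genes cannot be told apart. Groups came from genotype and treatment. Each library was taken as 1 rat, and p-values measure the spread between these samples.

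Counts of all 26 libraries entered 1 fit in edgeR 4.0.16 (R 4.3.3) by the robust quasi-likelihood test, with TMM factors, filterByExpr by group, and Benjamini-Hochberg adjustment over all genes at 0.05. Each SE was obtained from the F statistic, as the absolute log2 change over √F. A further fit added log2 CPM of Chrng (prior count 2) as a term, with Chrng left out of the genes tested. CPM is the count scaled to a library total of 1 megacount. Cdkn2a and Gdf15 were compared by exact permutation of mean CPM. Correlations used 100000 permutations within groups, or exact ones within a group (SciPy 1.17.1). DESeq2 1.42.0 and limma 3.58.1 were alternatives. The edgeR fits were tested on simulated data.

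The members and the 17 gene lists, of which 287 of 289 symbols matched, were chosen with earlier results of these data known. Named genes were the 9 members, Chrng, Chrna1, Chrnd, Myog, Ncam1, Runx1, Mdm4 and 1 gene not reported here, up to 4 called genes of smallest adjusted p per list and comparison, and the 3 genes most like each tested member with mean log2 CPM of at least 3. Of 76 pairs of libraries of a group, none agreed within sampling noise (smallest chi-square per degree of freedom 2.09). Libraries of different groups with the same replicate number did not deviate together (mean r -0.00492 over 33 pairs), so numbers were not taken as pairs.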

Additional observations from a re-analysis of the deposited data

Results flagged for a closer look

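In 40 sets of values, each 1 transcript in 1 group, 5 held a rat that stood apart from the rest of its group by Dixon's criterion, which chance meets in about 1 of 20 sets. Sedentary LCR rat 5 stood apart in Eda2r, at 367.9 CPM with the next rat at 237 CPM, and in Bax, at 41.9 CPM with the next at 28.8 CPM. This rat also had the highest Chrng of all 26. Sedentary HCR rat 5 had 998 CPM of Ccng1, with the next at 822 CPM. Running HCR rat 1 had 94.0 CPM of Mdm2, with the next at 80.0 CPM. Running LCR rat 3 had 0.567 CPM of Cdkn2a, which is 1 count where the other running LCR rats had 0.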

How the results depend on the processing

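Of the 7 tested members, 0 passed between the sedentary lines and 0 between the averaged lines with edgeR as reported, and these counts moved. Between the sedentary lines 1 member, Ccng1, passed with upper-quartile factors, with library size only, with the replicate block (log2 change 0.29, adjusted p = 0.0477), with DESeq2, with limma voom and without the 2 deepest libraries, and 2 passed with Chrng as a term. Between the averaged lines 1 passed with library size only, 2 with DESeq2 and 1 with Chrng as a term. The shares of all genes called under these alternatives are not given here. Leaving out each library in turn gave 0 to 1 in both, with Ccng1 called without sedentary HCR rat 8 or running HCR rat 1, and Phlda3 called between the averaged lines without running HCR rat 2. The other 5 comparisons of groups kept 0 under every alternative, and the slope on Chrng kept Cdkn1a and Eda2r under each alternative run. The slope of Phlda3 did not pass by the line in the titles (0.35, adjusted p = 0.0748), with Myog in place of Chrng (0.46, adjusted p = 0.0613), with no group term (0.28, adjusted p = 0.215), without the 2 deepest libraries (0.37, adjusted p = 0.0845) or without sedentary LCR rat 5. The cause was not tested. The replicate block changed no other call, and the pairing of numbers is not given by the labels. Counting depth limits what can be said of Cdkn2a and Gdf15. The terms for Chrng, Myh2 and depth, the pooled correlations, the omission of the deepest libraries and the alternatives for Cdkn2a and Gdf15 were added after the data were seen.

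Every other change of sign was of a log2 difference that passed in neither fit. With the replicate block, Phlda3 was at 0.0594 for running in LCR and 0.0742 for running averaged, Eda2r at -0.0048 for running in LCR, Cdkn1a at 0.134 for the difference of responses, and the slope of Ccng1 at -0.0079. By the line in the titles, running HCR against running LCR was -0.194 for Bax, -0.12 for Phlda3 and -0.418 for Cdkn1a, the averaged line difference was -0.0377 for Bax, -0.0149 for Mdm2 and -0.156 for Cdkn1a, and running in LCR was 0.00698 for Bax, 0.377 for Phlda3 and 0.00781 for Cdkn1a. By the same titles Phlda3 was at -0.337 for running in HCR, 0.0198 for running averaged and at -0.714 for the difference between responses. Without both of those libraries, running HCR against running LCR was -0.0983 for Bax and -0.19 for Cdkn1a, the averaged line difference of Cdkn1a was -0.0418, running in LCR was -0.00269 for Ccng1, 0.0688 for Phlda3 and 0.0334 for Cdkn1a, and Phlda3 was at -0.157 for running in HCR and -0.226 for the difference of responses. With library size only, Eda2r was at -0.00865 for running in LCR and Phlda3 at -0.0168 for running in HCR. DESeq2 gave Phlda3 0.00898 for running averaged, and limma voom gave it -0.107 for running in HCR and -0.0847 for the difference of responses, where Cdkn1a was at 0.208. The slope of Sesn2 was 0.0945 on Myog and 0.00387 with total count as a term. Without the 2 deepest libraries, Sesn2 was at 0.0239 for the averaged lines and Phlda3 at 0.0344 for running in LCR and 0.0699 for running averaged. With Chrng as a term, Eda2r was at 0.0125 between the running lines, Phlda3 at 0.128 and Cdkn1a at 0.117 for running in LCR, and Phlda3 at 0.129 and Cdkn1a at 0.045 for running averaged. The correlation of Ccng1 with Chrng was -0.0774 without the 2 rats farthest from the median and -0.00707 pooled over groups, where that of Mdm2 was 0.392 (permutation p = 0.0472). For Gdf15, HCR running minus sedentary was 0.112 CPM with TMM scaling, 0.029 CPM by the titles and 0.164 CPM without those libraries.

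Leaving out each library in turn gave these ranges where a sign or call changed. Between the sedentary lines Cdkn1a ranged from -0.0699 to 0.313 and Sesn2 from -0.287 to 0.0105. Between the running lines Bax ranged from -0.0795 to 0.119, Cdkn1a from -0.184 to 0.689, Eda2r from -0.0979 to 0.16 and Sesn2 from -0.0888 to 0.144. Between the averaged lines Cdkn1a ranged from -0.0423 to 0.398 and Sesn2 from -0.118 to 0.0292. For running in LCR, Ccng1 ranged from -0.00288 to 0.0732, Cdkn1a from -0.838 to 0.0348, Eda2r from -0.159 to 0.135 and Phlda3 from -0.279 to 0.0692. For running in HCR, Phlda3 ranged from -0.154 to 0.288 and Sesn2 from -0.21 to 0.088, and for running averaged Phlda3 ranged from -0.113 to 0.109. For the difference of responses, Bax ranged from -0.197 to 0.00124, Cdkn1a from -0.283 to 0.583 and Phlda3 from -0.0827 to 0.36. The slope of Ccng1 on Chrng ranged from -0.00153 to 0.0272. Correlations with Chrng ranged from 0.178 to 0.469 for Bax, -0.0363 to 0.142 for Ccng1 and 0.293 to 0.441 for Mdm2. In CPM, Cdkn2a ranged from -0.149 to 0.0328 for running in LCR and from -0.0922 to 0.0264 between the sedentary lines. Gdf15 ranged from -0.76 to 0.618 for running in HCR, from -0.719 to 0.132 for running in LCR and from 0.708 to 1.39 between the sedentary lines.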
